A study of Mus musculus with 11 samples.

Results

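The comparison described here is the injury response of mice without Lrg1: single-cell RNA sequencing libraries of Lrg1-/- mice after middle cerebral artery occlusion and reperfusion (MCAO/R, a model of ischemic stroke with restored blood flow) against libraries of sham-operated Lrg1-/- mice. Members were chosen by their labels, and there were 6 such libraries of 11 in the series, with replicates numbered 1, 2 and 5 in each of the MCAO/R + Lrg1-/- and the sham + Lrg1-/- groups (3 libraries a group). They held 72690 of the 125787 cells retained. The other libraries, 3 of the sham + WT group and 2 of the MCAO/R + WT group, entered the same fits and served to test whether the Lrg1-/- response differed from that of wild-type mice.

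Every mouse gave 1 library, made with the 10x Genomics 3′ kit from the digested right brain after lysis of red blood cells. All 6 mice carried the conventional, whole-body Lrg1 knockout on a C57BL/6 background, so that the sham mice lacked the gene as well. Sham mice were operated on without occlusion. In such a model a response in a given cell type can follow from the loss of the gene in that cell or in any other, and from the whole of development without it. The methods give the wild-type mice as males and state no sex for the single-cell Lrg1-/- mice.

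Lrg1 encodes a secreted leucine-rich glycoprotein that vascular and myeloid cells make in inflammation and that is known to act on TGF-beta signaling in endothelial cells. After a stroke, microglial cells, the resident macrophages of the brain, leave their resting program and take up debris and lipid, the vessel wall loses barrier functions, and glial cells take on a reactive state. Blood leukocytes enter the tissue, and stress hormones released by the adrenal gland act on most cells of the brain through the glucocorticoid receptor.

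As a check of the genotype, Lrg1 was read first. All 3 sham libraries and MCAO/R replicates 1 and 2 held 0 Lrg1 UMIs over all cells, and MCAO/R replicate 5 held 1, with totals of 34978129 to 168747478 UMIs. In endothelial cells a count of 0 allowed levels of up to 0.0807 to 0.589 CPM (counts of the gene relative to all UMIs of that type and library, in parts of 1000000) in these 6 libraries, whereas Lrg1 stood at 7.08, 23.3 and 7.64 CPM in the sham + WT and at 422 and 482 CPM in the MCAO/R + WT libraries.

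Several libraries stood apart before any comparison. Xist, the RNA that coats the inactive X chromosome of female cells, reached 366 and 476 CPM in MCAO/R replicates 1 and 2 and at most 1.05 CPM in each of the other 9 libraries. The sum of Ddx3y, Eif2s3y, Kdm5d and Uty, genes of the Y chromosome, was 0.488 and 0.515 CPM in those 2 libraries and 209 to 487 CPM in the others. MCAO/R replicates 1 and 2 thus came from female and the other libraries from male mice by these genes, and sex cannot be told apart from the injury in the 2 libraries. Counts were therefore also computed with MCAO/R replicate 5 as the only library of its group, an alternative chosen after seeing the data. The number of barcodes ranged from 5650 to 15500 in the sham and from 8500 to 36858 in the MCAO/R group. It was a round number in the 3 sham libraries and in MCAO/R replicate 1, whose lowest UMI counts per barcode were 551 to 770 against 500 in the rest. The median number of UMIs per cell that passed the filters was 3190 to 7911. Libraries shared 0.233% to 1.25% of the barcodes of the smaller one.

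Transcripts of other cell types were found in the sums of a type in all 6 libraries, and whether they came from free RNA or from attached cells was not tested. In microglial cells, haemoglobin transcripts took 21410 to 49480 CPM in the sham and 9330 to 16170 CPM in the MCAO/R group, against 17.2 to 22.8 CPM in the WT libraries. Transcripts of the choroid plexus took 5269 to 10360 CPM and 2899 to 4725 CPM. All 4 haemoglobin genes and all 5 choroid plexus tracers were called lower after MCAO/R in microglial cells. Barcodes named as red blood cells, which make little RNA other than haemoglobin, were taken to show the level that transcripts of other cells can reach. In them Spp1, a gene of macrophages, stood at 4.03, 4.43 and 5.23 CPM in the sham and 141, 1452 and 475 CPM in the MCAO/R libraries, and P2ry12, a gene of microglial cells, at 124, 153 and 141 CPM in the sham and 31.1, 10.8 and 30.3 CPM in the MCAO/R libraries. Such levels are given beside the results that they touch, and their part in those results was not tested. A sum over cells cannot tell fewer RNA molecules per cell from a change in which cells of a type were captured.

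A total of 13 cell types had enough cells to be tested. Raw UMIs were summed per library and type and fitted with the quasi-likelihood test of edgeR, and a gene was called differentially expressed (DEG) when its p, adjusted after Benjamini and Hochberg, was below 0.05 and its natural-log fold change exceeded 0.25 in size. Levels are given in CPM scaled by TMM, in the order of replicates 1, 2 and 5, and fold changes are log2 values of the MCAO/R over the sham group with their standard errors (SE). The scaling factors were computed within each type, so levels of different types do not share a scale. A factor above 1 lowers the printed level. In red blood cell barcodes the factors were 0.852, 0.802 and 0.63 in the sham and 1.14, 1.148 and 1.774 in the MCAO/R libraries. The replicates are separate mice. The markers that named the types were then read in the same cells, which describes the names and is no independent check. In astrocytes 6 of 9 markers were highest in their own type in both Lrg1-/- groups. T cells held 6 of 8 in the sham and all 8 in the MCAO/R group. All 10 microglial markers were highest in microglial cells after MCAO/R and 9 of 10 in the sham group, and the 8 markers of border-associated macrophages were highest in their own type in both. Of 8 markers, the cells called monocytes and monocyte-derived macrophages held 2 as the highest level in the sham and 4 in the MCAO/R group, so that this name rests on few genes. The genes named below follow a rule given with the methods, except Cldn5, Kdr, Smad7, Tek and Unc5b in endothelial cells and Cxcl10, Cxcl12, Fcrls, Gpr34, Isg15, Mki67, Olfml3 and Smad3 in microglial cells, which were chosen after their values were seen.

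The number of DEGs differed widely between the cell types. Microglial cells had 3739 DEGs with higher and 2765 with lower expression of 18350 genes tested (20.4% and 15.1%). Endothelial cells had 1562 and 1418 of 16686 (9.36% and 8.5%), and oligodendrocytes 971 and 1120 of 16174 (6.0% and 6.92%). Border-associated macrophages, the macrophages of the meninges and perivascular spaces, had 618 and 421 of 11183 (5.53% and 3.76%). Monocytes and monocyte-derived macrophages had 445 and 551 of 6935 (6.42% and 7.95%). The other 8 types had 25 to 312 DEGs. The shares over all genes of a type are the background for the list counts given below. Numbers of cells and depth differed between the types, and their part in these counts was not tested.

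The calls rested to different degrees on single libraries. Of the 6504 microglial DEGs, 3914 (60.2%) were called in the same direction in each of the 6 fits that left out 1 Lrg1-/- library, as were 1389 of 2980 (46.6%) in endothelial cells, 811 of 2091 (38.8%) in oligodendrocytes and 244 of 1039 (23.5%) in border-associated macrophages. The microglial count ranged from 4900 to 6613. The endothelial count was 1731 without MCAO/R replicate 2 and 1705 without sham replicate 2, and 1665 and 1662 of these were among the 2980. The oligodendrocyte count was 1083 without sham replicate 1 and 1363 without sham replicate 2. For border-associated macrophages it was 364 without MCAO/R replicate 2, 402 without sham replicate 1 and 483 without sham replicate 2. With MCAO/R replicate 5 as the only library of its group, 3738 of the microglial DEGs were still called, as were 1130 in endothelial cells and 1430 in oligodendrocytes. Most DEGs of border-associated macrophages were no longer called in that fit. In it the lone library is assumed to vary like those of the other groups, and it shares replicate 5 and the sham libraries with the fit that chose the DEGs, so that these counts are no independent check. With all cells thinned to 1000 UMIs, the counts were 2947 in microglial cells, 1284 in endothelial cells, 530 in oligodendrocytes, 176 in border-associated macrophages and 222 in monocytes and monocyte-derived macrophages.

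**Figure D1:**
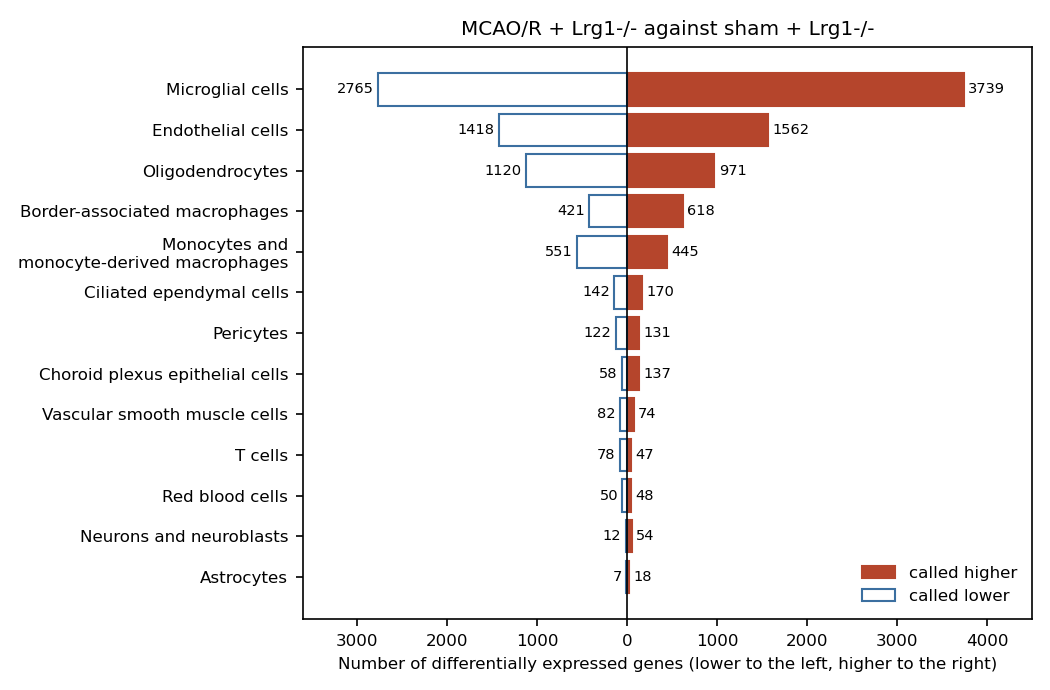
Number of differentially expressed genes in 13 cell types, MCAO/R + Lrg1-/- against sham + Lrg1-/- (horizontal axis, number of genes from 0; filled bars to the right are genes called higher and open bars to the left genes called lower). Microglial cells have 3739 higher and 2765 lower genes, and astrocytes 18 and 7.

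The shares of the cell types were compared first. Vascular smooth muscle cells made up 7.20%, 7.50% and 12.6% of the cells in the sham and 2.78%, 3.32% and 1.70% in the MCAO/R libraries, and the groups did not overlap (mean 9.10% ± 3.04 against 2.60% ± 0.826, SD, n = 3 each, exact two-sided permutation p = 0.1). Border-associated macrophages held 1.86%, 1.85% and 1.40% against 0.889%, 1.28% and 0.279%, also without overlap. Barcodes named as red blood cells held 1.94%, 1.81% and 2.41% against 2.88%, 11.7% and 4.02%, again without overlap. A p of 0.1 is the smallest that 3 against 3 can give in this test, and these 3 comparisons reached it. Every named type and the unnamed cells were compared without correction for their number, and no other comparison reached 0.1. Some of so many comparisons can reach this floor by chance. At a lower clustering resolution (Leiden 0.3) the difference in smooth muscle cells went from -6.502 to -1.07 percentage points (exact permutation p = 0.3) and that in border-associated macrophages from -0.886 to -0.422 (p = 0.4 in the same exact test), so that the groups overlapped in both. With doublets kept the p for border-associated macrophages in this exact test was 0.2.

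Cells that enter from the blood were unevenly spread over the MCAO/R libraries. Neutrophils made up 0.179%, 0.224% and 0.326% of the cells in the sham and 0.231%, 1.82% and 4.17% in the MCAO/R libraries. Monocytes and monocyte-derived macrophages made up 0.549%, 0.224% and 0.782% against 0.642%, 4.52% and 2.29%. MCAO/R replicate 1 lay within the sham range for both (exact permutation p = 0.2 for each). This depended on the denominator. With named cells other than red blood cells as the denominator, the difference went from 1.83 to 3.56 percentage points in neutrophils and from 1.97 to 3.29 in monocytes. The groups then did not overlap (exact permutation p = 0.1 for each). Microglial cells held 19.98%, 24.0% and 16.5% against 5.27%, 18.8% and 14.5%, and the groups overlapped (p = 0.2 in the same exact test). A total of 10.2% to 48.9% of cells stayed unnamed in the MCAO/R and 18.3% to 23.3% in the sham libraries, which enters each of these shares.

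In microglial cells, most genes of the disease-associated and of the lipid storage and efflux lists rose, and most of the homeostatic list, genes of the resting state, fell. Of the disease-associated microglia list, genes that microglia switch on around damage, 15 of 19 tested genes rose and 0 fell, with a median log2 fold change of 2.29 against -0.00206 over all genes tested. Spp1, which encodes the secreted protein osteopontin, was at 3.11, 3.51 and 2.96 CPM in the sham and 1848, 12150 and 2448 CPM in the MCAO/R libraries (log2 fold change 10.73, SE 1.29, adjusted p = 0.0001204). The lowest MCAO/R library, replicate 1, lay far above the highest sham library, and replicate 2 was the highest. Igf1, a growth factor, rose from 0.717, 1.27 and 0.329 CPM to 17.5, 54.4 and 26.6 CPM (log2 fold change 5.302, SE 0.61, adjusted p = 9.96e-05).

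Lgals3, the lectin galectin-3, stood at 13.4, 8.45 and 9.55 CPM in the sham and 318, 587 and 219.8 CPM in the MCAO/R libraries (log2 fold change 5.14, SE 0.67, adjusted p = 0.000172). Lpl, the lipase that frees fatty acids from lipoproteins, stood at 34.2, 17.1 and 9.22 CPM in the sham and 489.5, 914 and 426 CPM in the MCAO/R libraries (log2 fold change 4.84, SE 0.78, adjusted p = 0.000553). Lilrb4a, an inhibitory receptor, stood at 10.2, 6.69 and 8.89 CPM in the sham and 276, 454 and 265 CPM in the MCAO/R libraries (log2 fold change 5.27, SE 0.39, adjusted p = 7.38e-06). In all 3 genes the groups did not overlap, and MCAO/R replicate 2 was the highest library.

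Of the lipid storage and efflux list, 11 of 14 tested genes rose and 0 fell (median 1.60). Plin2, which coats lipid droplets, was at 58.6, 55.6 and 41.1 CPM in the sham and 271, 599.7 and 294 CPM in the MCAO/R libraries (log2 fold change 2.896, SE 0.29, adjusted p = 4.85e-05), without overlap. Cd36, a receptor that takes up lipids, had a fold change of 3.74 and Hilpda, a lipid droplet protein induced by hypoxia, one of 2.81 on the log2 scale. Among the genes with the largest rise were also Mmp12, a protease of macrophages (0.119, 0 and 0.988 CPM in the sham and 28.2, 95.05 and 12.1 CPM in the MCAO/R libraries), and Msr1, a scavenger receptor (2.51, 0.159 and 2.304 and 158, 281 and 183 CPM). Adam8, a membrane protease of leukocytes, was at 1.91, 1.91 and 1.65 and 73.6, 165 and 55.9 CPM. Some markers of other myeloid cells were also called higher in the microglial sums, where 20.4% of all genes tested were. Of the 8 monocyte markers 5 were called higher, with sums of 30.4 to 33.6 CPM in the sham and 57.01 to 157 CPM in the MCAO/R group. Of the 9 neutrophil markers 5 were called higher and 1 lower (220.3 to 265 CPM and 85.1 to 447 CPM), and of the 8 markers of border-associated macrophages 2 were called higher (105 to 137 CPM and 175 to 241 CPM). The last of these counts lay near the share over all genes. The part of these markers in the results was not tested.

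Of the homeostatic list, 1 of 15 tested genes rose and 11 fell (median -0.80). P2ry12, the purinergic receptor with which microglial processes sense ATP, stood at 877, 898 and 1065 CPM in the sham and 311, 176 and 276 CPM in the MCAO/R libraries (log2 fold change -1.899, SE 0.18, adjusted p = 3.51e-05). Slc2a5, a fructose transporter of microglia, stood at 126, 142 and 131 CPM in the sham and 46.9, 26.1 and 45.7 CPM in the MCAO/R libraries (log2 fold change -1.76, SE 0.20, adjusted p = 8.34e-05). Siglech, a sialic acid-binding receptor, stood at 498, 539 and 608 CPM in the sham and 223, 132 and 205 CPM in the MCAO/R libraries (log2 fold change -1.56, SE 0.17, adjusted p = 6.95e-05), and none of the 3 genes had an MCAO/R library within the sham range. The member that rose was Fcrls, a scavenger receptor-like gene of microglia, from 528, 668 and 655 CPM to 1062, 1475 and 797 CPM (log2 fold change 0.85, SE 0.26, adjusted p = 0.0215). Fcrls did not pass without sham replicate 1 or 2 or MCAO/R replicate 2 (log2 fold change 0.59 to 0.85, adjusted p = 0.0557 to 0.105).

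For Olfml3, a secreted protein of microglia and another member of the list, no change passed the test at 432, 474 and 495 CPM in the sham and 537, 443 and 422 CPM in the MCAO/R libraries (log2 fold change 0.00, SE 0.16, adjusted p = 0.999), and the libraries of the groups overlapped. The genes with the largest fall under the naming rule were Upk1b, Stx19, Morn3, Iqcn and Kcnk12, with log2 fold changes of -2.94 to -2.42. Lst1, a leukocyte gene, went from 73.98, 83.7 and 95.8 CPM to 20.2, 14.4 and 19.04 CPM.

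**Figure D2:**
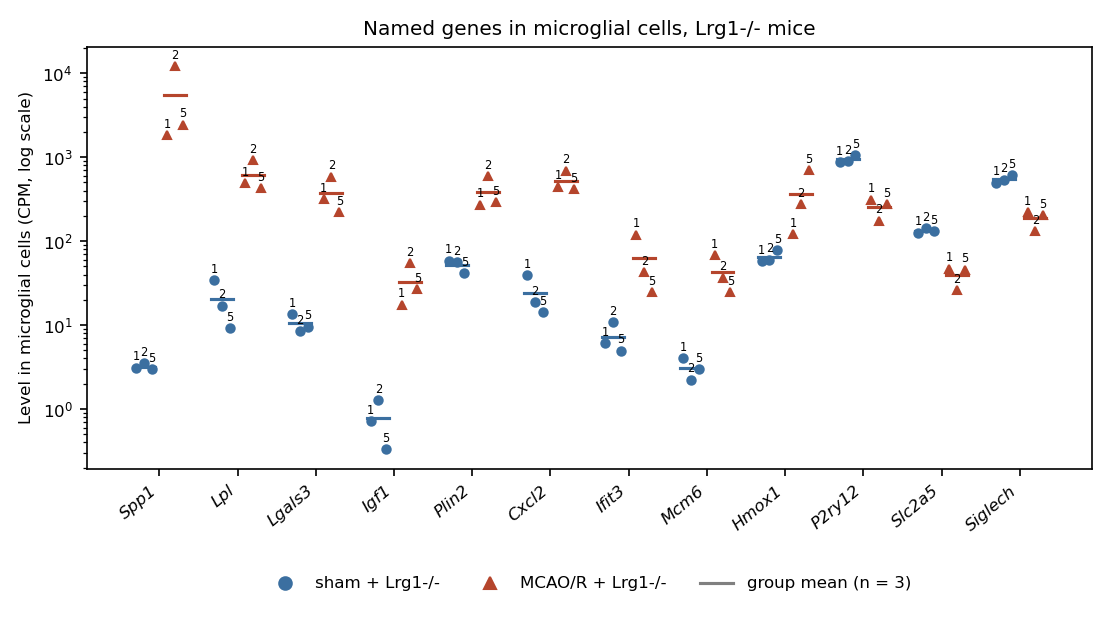
Levels of 12 named genes in microglial cells of the 6 Lrg1-/- libraries (vertical axis, CPM on a log scale; each point is 1 library, circles sham, triangles MCAO/R, numbers mark the replicate, and short lines are group means). Spp1, Lpl and Cxcl2 lie higher and P2ry12 and Slc2a5 lower in all 3 MCAO/R libraries, without overlap.

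Most of the listed inflammatory messengers rose in microglial cells. Of the chemokine and cytokine list, 16 of 21 tested genes rose and 1 fell (median 1.89). Il1rn, the natural antagonist of the interleukin-1 receptor, was at 0.358, 0 and 0 CPM in the sham and 17.5, 41.4 and 18 CPM in the MCAO/R libraries (log2 fold change 7.24, SE 1.37, adjusted p = 0.00144). Cxcl2, which attracts neutrophils, was at 39.4, 18.8 and 14.2 CPM in the sham and 444, 689 and 417 CPM in the MCAO/R libraries (log2 fold change 4.36, SE 0.38, adjusted p = 2.19e-05), and Ccl7, which attracts monocytes, at 15.4, 17.9 and 11.5 CPM in the sham and 217, 235 and 120.4 CPM in the MCAO/R libraries (log2 fold change 3.64, SE 0.74, adjusted p = 0.00226). The groups overlapped in none of them. Lif, a cytokine of the interleukin-6 family, had 0 UMIs in the 3 sham libraries and 0.762, 1.57 and 1.34 CPM in the MCAO/R libraries, which is at least 7.22-fold higher against a floor of 3 counts over the sham group. The 1 member that fell was Cxcl12, at 13.98, 24.7 and 25.7 CPM in the sham and 2.48, 7.22 and 2.75 CPM in the MCAO/R libraries.

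Of the interferon-stimulated list, 10 of 17 tested genes rose and 0 fell (median 1.15). Ifit3 stood at 6.09, 10.8 and 4.94 CPM in the sham and 119.7, 42.9 and 24.7 CPM in the MCAO/R libraries (log2 fold change 3.01, SE 0.70, adjusted p = 0.00494), and Ifit1 at 2.87, 5.1 and 3.62 CPM in the sham and 40.6, 13.8 and 7.96 CPM in the MCAO/R libraries (log2 fold change 2.302, SE 0.55, adjusted p = 0.00577). Both encode proteins that bind foreign RNA. Rsad2, the antiviral enzyme viperin, stood at 8.61, 7.81 and 11.5 CPM in the sham and 109, 45.97 and 31.4 CPM in the MCAO/R libraries (log2 fold change 2.75, SE 0.75, adjusted p = 0.0125). Isg15, a ubiquitin-like protein, stood at 18.9, 21.5 and 23.7 CPM in the sham and 112, 65.03 and 37.1 CPM in the MCAO/R libraries (log2 fold change 1.73, SE 0.33, adjusted p = 0.00146). Replicate 1 was the highest MCAO/R library in Ifit1 and Ifit3, and no MCAO/R library reached down into the sham range. Rsad2 did not pass without sham replicate 1 or 2 (log2 fold change 2.699 and 2.599, adjusted p = 0.0536 and 0.0593).

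Proliferation genes rose in part. Of the cell cycle list, 9 of 21 tested genes rose and 0 fell (median 0.89). Mcm6, Mcm5 and Mcm2, called members of the list, are subunits of the helicase that opens origins of replication. Mcm6 was at 4.06, 2.23 and 2.96 CPM in the sham and 68.2, 36.6 and 24.8 CPM in the MCAO/R libraries (log2 fold change 3.74, SE 0.37, adjusted p = 4.55e-05), Mcm5 at 3.71, 2.55 and 2.96 CPM in the sham and 48.8, 27.8 and 21.6 CPM in the MCAO/R libraries (log2 fold change 3.36, SE 0.33, adjusted p = 4.24e-05) and Mcm2 at 2.03, 2.39 and 3.29 CPM in the sham and 36.4, 23.9 and 16.5 CPM in the MCAO/R libraries (log2 fold change 3.36, SE 0.36, adjusted p = 6.49e-05). The 3 subunits were higher in each MCAO/R library than in any sham library. Uhrf1, which is not on the list and maintains DNA methylation through replication, was at 1.55, 0.956 and 1.32 CPM in the sham and 32.6, 17.5 and 12.4 CPM in the MCAO/R libraries (log2 fold change 3.97, SE 0.45, adjusted p = 8.35e-05). Mki67, a marker of dividing cells, did not pass the test at 9.32, 17.7 and 1.32 CPM in the sham and 25.2, 5.48 and 5.21 CPM in the MCAO/R libraries (log2 fold change 0.12, SE 0.66, adjusted p = 0.909).

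The 250 bases before the RefSeq start sites (GRCm38.p6) of these interferon-stimulated and replication genes are shown as examples that hold a short motif, and were picked for holding it. Capitals mark GAAA followed after any 2 bases by GAAA, the core of the interferon-stimulated response element, in the first pair, and TTTCGCGC or TTTGGCGC, letters bound by E2F factors, in the second pair. Both strands were searched, and overlapping matches are merged.
Ifit1, chr19:34640639-34640888, plus strand: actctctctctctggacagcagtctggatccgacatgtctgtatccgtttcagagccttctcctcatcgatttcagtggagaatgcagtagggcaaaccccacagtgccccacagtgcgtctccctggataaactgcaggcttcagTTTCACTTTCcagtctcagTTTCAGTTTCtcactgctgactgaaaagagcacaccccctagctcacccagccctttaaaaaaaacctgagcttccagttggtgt
Isg15, chr4:156200819-156201068, minus strand: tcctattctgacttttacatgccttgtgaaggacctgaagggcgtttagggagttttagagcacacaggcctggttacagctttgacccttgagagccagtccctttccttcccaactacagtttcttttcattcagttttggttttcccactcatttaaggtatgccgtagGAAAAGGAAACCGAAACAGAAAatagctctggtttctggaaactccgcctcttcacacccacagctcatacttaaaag
Mcm6, chr1:128359706-128359955, minus strand: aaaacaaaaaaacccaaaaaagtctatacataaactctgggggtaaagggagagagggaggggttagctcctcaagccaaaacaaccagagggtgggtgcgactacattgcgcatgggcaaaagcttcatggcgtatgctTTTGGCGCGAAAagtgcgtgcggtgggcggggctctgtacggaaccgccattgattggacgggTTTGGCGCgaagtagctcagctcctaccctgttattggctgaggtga
Mcm5, chr8:75109259-75109508, plus strand: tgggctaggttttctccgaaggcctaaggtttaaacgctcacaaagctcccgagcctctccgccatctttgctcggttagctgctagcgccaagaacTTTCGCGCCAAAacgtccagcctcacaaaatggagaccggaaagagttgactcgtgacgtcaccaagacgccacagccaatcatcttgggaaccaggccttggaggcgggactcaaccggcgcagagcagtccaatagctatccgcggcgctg
The paired GAAA was found in 5 of the 7 called interferon-stimulated genes with a listed promoter (Bst2, Ifit1, Ifit3, Isg15 and Rsad2) and in 2.98% of 32851 promoters of the same length. The E2F letters were found in 3 of the 8 called cell cycle genes with a listed promoter (Cdk1, Mcm5 and Mcm6, but not Mcm2) and in 0.655% of all promoters. Among the promoters of genes tested in microglial cells the shares were 2.72% and 1.04%. In oligodendrocytes, 1 form of the sterol regulatory element, bound by SREBP factors, was found in 0 of 7 called genes of the cholesterol synthesis list described below and in 0.0731% of all promoters. A match is a description of the letters and was not tested for binding.

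Metabolic genes changed as well. Of the glycolysis list, 9 of 15 tested genes rose and 1 fell (median 0.92). Pkm, pyruvate kinase, was at 137, 136 and 132 CPM in the sham and 543, 886 and 523 CPM in the MCAO/R libraries (log2 fold change 2.27, SE 0.31, adjusted p = 0.000209), and Gapdh had a log2 fold change of 1.83, Ldha of 1.59 and Pgk1 of 1.47. Of the genes that the mitochondrial genome encodes, 0 of 13 tested genes rose and 10 fell (median -0.61). mt-Atp8 was at 35.2, 42.5 and 39.5 CPM in the sham and 22.1, 13.6 and 10.3 CPM in the MCAO/R libraries and mt-Nd4l at 149.6, 154 and 125 CPM in the sham and 73.6, 66.4 and 53.7 CPM in the MCAO/R libraries, and neither overlapped between the groups. Of the cytosolic ribosomal protein genes, 55 of 78 tested genes rose and 1 fell (median 0.59). Rps2 was at 626, 534 and 619 CPM in the sham and 1497, 1894 and 1511 CPM in the MCAO/R libraries (log2 fold change 1.46, SE 0.15, adjusted p = 5.77e-05). Its level in red blood cell barcodes was 266, 259 and 290.3 CPM in the sham and 568, 516 and 471 CPM in the MCAO/R libraries. UMIs per microglial cell were 4382 to 5707 in the sham and 8010 to 14910 in the MCAO/R libraries.

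Stress genes were examined next in microglial cells, where 20.4% of all genes were called higher. Of the haem, iron and Nrf2 list, 9 of 15 tested genes rose and 1 fell. Hmox1, the enzyme that degrades haem, was at 57.96, 59.9 and 78.7 CPM in the sham and 121, 277 and 706 CPM in the MCAO/R libraries (log2 fold change 2.51, SE 0.46, adjusted p = 0.001205), highest in MCAO/R replicate 5. Of the integrated stress response list, 8 of 15 tested genes rose and 1 fell, among them Psat1, an enzyme of serine synthesis (2.73 on the log2 scale), Asns, asparagine synthetase (2.73), and Slc7a11, the cystine transporter (2.64). Of the annexin, S100 and cytoskeleton list, 12 of 17 tested genes rose and 1 fell, led after Lgals3 by Emp1 (3.67) and Lgals1 (2.503).

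Other lists had more members called lower than higher, where 15.1% of all genes were called lower. Of the TGF-beta pathway list, the signaling route on which Lrg1 is known to act, 2 of 24 tested genes rose and 14 fell (median -0.64). Ltbp4, which anchors latent TGF-beta in the matrix, was at 6.57, 14.03 and 12.2 CPM in the sham and 1.52, 3.65 and 1.25 CPM in the MCAO/R libraries (log2 fold change -2.24, SE 0.40, adjusted p = 0.000994). Tgfb2, a ligand, and Ltbp1 had log2 fold changes of -1.55 and -1.302, and Smad3, a transcription factor of the pathway, one of -1.15. Ltbp1 did not pass without sham replicate 1 (log2 fold change -1.06, adjusted p = 0.0673). Id2, an inhibitor of differentiation that the pathway regulates, rose from 338, 196 and 254 CPM to 878, 1319 and 727 CPM. Ltbp4 and Tgfb2 are genes of the vessel wall, and the summed endothelial markers in microglial cells ranged from 346 to 564 CPM in the sham and from 123 to 458 CPM in the MCAO/R group.

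Of the MHC class I list, 0 of 12 tested genes rose and 6 fell (median -0.45). H2-T23 was at 70.99, 141 and 148 CPM in the sham and 44.03, 66.3 and 26.8 CPM in the MCAO/R libraries (log2 fold change -1.38, SE 0.31, adjusted p = 0.00398), without overlap. Of the immediate early list, genes that also respond to tissue dissociation, 2 of 21 tested genes rose and 8 fell. Klf4 was at 690.3, 799 and 929 CPM in the sham and 244, 401 and 563 CPM in the MCAO/R libraries (log2 fold change -0.997, SE 0.23, adjusted p = 0.00434), and Ier3 was among the 2 that rose (0.79 on the log2 scale). Smooth muscle genes, which belong to another cell type, were called lower for 8 of 11 and choroid plexus genes for 15 of 20 in the microglial sums. The summed smooth muscle markers there were 401 to 520 CPM in the sham and 101 to 167 CPM in the MCAO/R group.

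In border-associated macrophages, members of the disease-associated, cytoskeleton and glycolysis lists rose. Of the disease-associated list 9 of 18 tested genes rose and 1 fell, of the annexin, S100 and cytoskeleton list 9 of 17 tested genes rose and 0 fell, and of the glycolysis list 8 of 15 tested genes rose and 0 fell, with medians of 1.30, 1.29 and 0.80 against 0.00864 over all genes. Spp1 was at 0.787, 3.26 and 24.3 CPM in the sham and 1428, 3701 and 2349 CPM in the MCAO/R libraries (log2 fold change 8.82, SE 0.60, adjusted p = 3.13e-06), above its level in red blood cell barcodes of the same libraries. Saa3, an acute phase protein, had 0 UMIs in the sham libraries and 645, 249 and 1083 CPM after MCAO/R. Arg1, the arginase that marks alternatively activated macrophages, was at 0, 1.09 and 0 CPM in the sham and 8.81, 234 and 36.9 CPM in the MCAO/R libraries (log2 fold change 7.82, SE 1.37, adjusted p = 0.00391). Arg1 is also on the marker list of monocytes and monocyte-derived macrophages, where each MCAO/R library held a higher level of it. The part of monocyte transcripts in its rise was not tested.

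Lgals3 in these macrophages was at 18.9, 9.79 and 29.7 CPM in the sham and 211, 185 and 427 CPM in the MCAO/R libraries (log2 fold change 3.93, SE 0.40, adjusted p = 0.000135) and S100a4, a calcium-binding protein, at 3.94, 2.18 and 16.2 CPM in the sham and 21.1, 33.8 and 103 CPM in the MCAO/R libraries (log2 fold change 3.19, SE 0.77, adjusted p = 0.0194). Fabp5, a carrier of fatty acids, was at 26.8, 20.7 and 27.02 CPM in the sham and 143, 224 and 314 CPM in the MCAO/R libraries (log2 fold change 3.197, SE 0.32, adjusted p = 0.000135). The groups overlapped in none of the 3 genes. Of the chemokine list, 5 of 21 tested genes rose and 1 fell, led by Ccl9 (3.37 on the log2 scale), Il1rn (3.17) and Ccl6 (3.15). Il1rn did not pass without sham replicate 2 or MCAO/R replicate 2 (log2 fold change 2.73 and 2.62, adjusted p = 0.0919 and 0.143), and S100a4 did not pass without sham replicate 1 or 2 or MCAO/R replicate 5 (log2 fold change 2.36 to 2.84, adjusted p = 0.0617 to 0.108). Of 7 tested monocyte markers 3 were called higher in this type, with sums of 66.3 to 108 CPM in the sham and 160.5 to 427 CPM in the MCAO/R group, as were 3 of 7 tested neutrophil markers (88.0 to 146 CPM and 60.0 to 772 CPM). Their part in the rises of this type was not tested.

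Among the largest falls in this type were Tslp, Pla2g2d and Nr3c2, while the summed markers of the type stood at 7207 CPM in the sham and 9759 CPM in the MCAO/R group. Tslp, a cytokine that acts on dendritic cells, was at 52.8, 57.7 and 45.9 CPM in the sham and 5.28, 5.63 and 3.88 CPM in the MCAO/R libraries (log2 fold change -3.31, SE 0.29, adjusted p = 6.03e-05). Pla2g2d, a phospholipase of resident macrophages, was at 81.9, 50.04 and 89.2 CPM in the sham and 10.6, 9.65 and 0 CPM in the MCAO/R libraries (log2 fold change -3.15, SE 0.39, adjusted p = 0.000588). Nr3c2, the mineralocorticoid receptor, was at 81.9, 99 and 62.1 CPM in the sham and 24.7, 16.9 and 13.6 CPM in the MCAO/R libraries (log2 fold change -2.21, SE 0.37, adjusted p = 0.002895). No MCAO/R library reached the sham range in these genes. Of the immediate early list, 0 of 21 tested genes rose and 12 fell (median -0.66), led by Egr3 (-2.44), and of the MHC class I list 0 of 12 tested genes rose and 4 fell, led by H2-T23 (-1.88). Egr3 did not pass without sham replicate 1 or MCAO/R replicate 2 (log2 fold change -1.94 and -1.96, adjusted p = 0.0501 and 0.0639), and H2-T23 did not pass without MCAO/R replicate 2 (log2 fold change -1.92, adjusted p = 0.0767).

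Monocytes and monocyte-derived macrophages had 2 sham libraries with enough cells (49 and 24 cells) and 3 MCAO/R libraries (39, 771 and 738 cells). Arg1 had 0 UMIs in both sham libraries and 134, 1395 and 2298 CPM after MCAO/R. It is on the marker list that named this type, so its rise is no independent result. Spp1 was at 2.24 and 3.501 CPM in the sham and 1371, 10490 and 8138 CPM in the MCAO/R libraries. Ccl7 was at 15.7 and 3.501 CPM in the sham and 273, 579 and 855 CPM in the MCAO/R libraries (log2 fold change 5.74, SE 0.65, adjusted p = 0.00123). Of the chemokine list 12 of 20 tested genes rose and 0 fell, of the disease-associated list 10 of 17 tested genes rose and 0 fell, and of the complement list 6 of 10 tested genes rose and 0 fell. Over all genes of this type 6.42% were called higher and 7.95% lower. In these sums 4 of 5 tested markers of border-associated macrophages were called higher (84.1 to 86.5 CPM in the sham and 396 to 2324 CPM in the MCAO/R group), as were 3 of 6 tested neutrophil markers (286 CPM in both sham libraries and 419 to 1155 CPM), and 4 of 10 microglial markers were called lower (2055 to 2474 CPM and 1165 to 1965 CPM). Their part in the result was not tested. Cd300e, a receptor of patrolling monocytes, was at 159 and 203 CPM in the sham and 34.5, 9.1 and 3.803 CPM in the MCAO/R libraries (log2 fold change -4.13, SE 0.68, adjusted p = 0.00336). Ly6i, a gene of the Ly6 family, had a log2 fold change of -4.08. The 996 DEGs of this type were 240 without sham replicate 1, 326 without sham replicate 5, 477 without MCAO/R replicate 2 and 526 without MCAO/R replicate 5.

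In endothelial cells, part of the blood-brain barrier list fell. Of this list, 1 of 20 tested genes rose and 10 fell (median -0.44 against -0.0134 over all genes). Itm2a, a membrane protein of brain endothelium, was at 2433, 2672 and 2810 CPM in the sham and 1088, 796 and 696 CPM in the MCAO/R libraries (log2 fold change -1.62, SE 0.19, adjusted p = 0.000319). Tfrc, the transferrin receptor, was at 285, 274 and 268 CPM in the sham and 121, 114 and 126 CPM in the MCAO/R libraries (log2 fold change -1.198, SE 0.18, adjusted p = 0.00116), and Bsg, basigin, at 8831, 10840 and 12180 CPM in the sham and 6075, 4206 and 4384 CPM in the MCAO/R libraries (log2 fold change -1.12, SE 0.26, adjusted p = 0.01004). In all 3 genes each MCAO/R library was below each sham library. The member that rose was Slc2a1, the glucose transporter of the barrier, from 1226, 1299 and 1367 CPM to 1992, 2669 and 2271 CPM (log2 fold change 0.83, SE 0.15, adjusted p = 0.00277). Cldn5, the main claudin of brain endothelium, was at 4420, 4881 and 4697 CPM in the sham and 3585, 3379 and 3414 CPM in the MCAO/R libraries (log2 fold change -0.43, SE 0.13, adjusted p = 0.0361). Cldn5 did not pass without sham replicate 1, 2 or 5 or MCAO/R replicate 2 or 5 (log2 fold change -0.44 to -0.38, adjusted p = 0.0558 to 0.137), and Bsg did not pass without MCAO/R replicate 2 (log2 fold change -0.995, adjusted p = 0.0517).

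Gkn3, which marks arterial endothelium of the brain, was at 129.7, 316 and 154 CPM in the sham and 17.5, 17.6 and 11.7 CPM in the MCAO/R libraries (log2 fold change -3.66, SE 0.32, adjusted p = 0.000116). Alpl, alkaline phosphatase of brain capillaries, was at 86.7, 122 and 84.05 CPM in the sham and 21.2, 12.6 and 11.1 CPM in the MCAO/R libraries (log2 fold change -2.72, SE 0.26, adjusted p = 0.000116). Ackr1, the chemokine-binding receptor of venules, rose from 34.4, 13.2 and 182 CPM to 396, 673 and 223 CPM (log2 fold change 2.52, SE 0.77, adjusted p = 0.0399). The highest sham library of Ackr1 lay close to the lowest MCAO/R library, and both were replicate 5. Fewer arterial and more venous cells and a change within cells cannot be told apart in these sums. Ackr1 did not pass without sham replicate 1 or 2 or MCAO/R replicate 2 (log2 fold change 2.03 to 2.19, adjusted p = 0.09505 to 0.138).

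The angiogenesis list was divided, and 5 of 18 tested genes rose and 5 fell (median -0.19), where 9.36% of all genes were called higher and 8.5% lower. Apln, the peptide ligand of tip cells, was at 0.808, 4.51 and 1.42 CPM in the sham and 46.3, 63.2 and 84.2 CPM in the MCAO/R libraries (log2 fold change 4.73, SE 0.57, adjusted p = 0.000351). Angpt2, the antagonist of the Tie2 receptor, was at 5.55, 10.1 and 9.304 CPM in the sham and 37.6, 69.8 and 44.8 CPM in the MCAO/R libraries (log2 fold change 2.63, SE 0.31, adjusted p = 0.000328), and Pgf, placental growth factor, at 1.01, 1.17 and 1.74 CPM in the sham and 2.0, 8.78 and 12.2 CPM in the MCAO/R libraries (log2 fold change 2.59, SE 0.66, adjusted p = 0.0173). In each, all MCAO/R libraries were higher. Unc5b, Tek, the Tie2 receptor, and Kdr, the main receptor for VEGF, were among the 5 that fell, with log2 fold changes of -1.06, -0.86 and -0.64. Inhbb, an activin subunit, and Adamts9, a matrix protease, were among the largest rises with 5.56 and 4.12. Kdr did not pass without sham replicate 2 or MCAO/R replicate 2 or 5 (log2 fold change -0.64 to -0.47, adjusted p = 0.0535 to 0.102), and Pgf did not pass without sham replicate 1 or 2 or MCAO/R replicate 2 (log2 fold change 2.47 to 2.55, adjusted p = 0.0661 to 0.0731).

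Of the TGF-beta pathway list, 2 of 24 tested genes rose and 11 fell (median -0.48). Ltbp4 was at 365, 481 and 371 CPM in the sham and 101, 76.2 and 53.8 CPM in the MCAO/R libraries (log2 fold change -2.39, SE 0.21, adjusted p = 0.000116). Tgfb2 was at 282, 268 and 208 CPM in the sham and 73.1, 47.2 and 62.5 CPM in the MCAO/R libraries (log2 fold change -2.06, SE 0.19, adjusted p = 0.000116). Id1, a direct target of the BMP branch through ALK1, was at 1798, 1829 and 1889 CPM in the sham and 613, 1084 and 933 CPM in the MCAO/R libraries (log2 fold change -1.07, SE 0.18, adjusted p = 0.00224), and Smad7, the inhibitory Smad, had a log2 fold change of -1.004. The groups overlapped in none of the first 3. Of the 8 smooth muscle markers, 6 were called lower in endothelial cells too, with sums of 323 to 654 CPM in the sham and 167 to 257 CPM in the MCAO/R group, and their part in the fall of Ltbp4 and Tgfb2 was not tested.

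Of the immediate early list in endothelial cells, 1 of 21 tested genes rose and 14 fell (median -0.67), with Zfp36 at 1867, 1689 and 1674 CPM in the sham and 986, 712 and 748 CPM in the MCAO/R libraries and Jun at 7267, 6309 and 5304 CPM in the sham and 2963, 2826 and 3265 CPM in the MCAO/R libraries. Of the interferon-stimulated list 1 of 17 tested genes rose and 5 fell, led by Gbp2 (-1.13 on the log2 scale) and Xaf1 (-1.01), with Ifi204 as the member that rose (1.496). Over all endothelial genes 9.36% were called higher and 8.5% lower. Gbp2 did not pass without sham replicate 2 or 5 or MCAO/R replicate 2 (log2 fold change -1.12 to -1.02, adjusted p = 0.0511 to 0.0888), and Ifi204 did not pass without sham replicate 1 or 2 (log2 fold change 1.34 and 1.53, adjusted p = 0.0807 and 0.0686). Of the disease-associated microglia list, genes of another cell type, 13 of 19 tested genes rose and 1 fell. Spp1 was at 0.909, 1.34 and 1.58 CPM in the sham and 254, 1343 and 499 CPM in the MCAO/R libraries in endothelial cells, against the levels of 141 to 1452 CPM that red blood cell barcodes reached after MCAO/R. The scaling factors of the MCAO/R libraries were 0.9695 to 1.062 in endothelial cells and 1.14 to 1.774 in red blood cell barcodes. The levels of the barcodes are thus lowered relative to those of endothelial cells. Summed markers of neutrophils in endothelial cells were 40.1 to 169 CPM in the sham and 68.5 to 627 CPM in the MCAO/R group, and 5 of 9 were called higher.

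Nearly all glucocorticoid-responsive genes rose in oligodendrocytes, the cells that make myelin. Of the glucocorticoid-responsive list, 13 of 14 tested genes rose and 0 fell, with a median of 1.74 against -0.00534 over all genes. Fkbp5, a co-chaperone of the glucocorticoid receptor and a direct target of it, was at 10.01, 9.27 and 11.7 CPM in the sham and 144, 142 and 222 CPM in the MCAO/R libraries (log2 fold change 4.07, SE 0.25, adjusted p = 2.78e-06). Sgk1, a kinase induced by corticosteroids, was at 141, 119 and 129.9 CPM in the sham and 811, 795 and 1221 CPM in the MCAO/R libraries (log2 fold change 2.85, SE 0.22, adjusted p = 8.71e-06). Cdkn1a, the cell cycle inhibitor p21, was at 37.7, 32.5 and 87.5 CPM in the sham and 157, 329.9 and 392 CPM in the MCAO/R libraries (log2 fold change 2.598, SE 0.36, adjusted p = 0.000542). All MCAO/R libraries were above all sham libraries in the 3 genes, and in red blood cell barcodes Fkbp5 reached 15.1, 13.3 and 18.5 CPM after MCAO/R. Markers of other types moved in the oligodendrocyte sums. Of 8 monocyte markers 4 were called higher (19.7 to 37.8 CPM in the sham and 19.7 to 90.7 CPM in the MCAO/R group), as were 4 of 7 tested neutrophil markers (33.9 to 93.6 CPM and 27.3 to 374 CPM) and 2 of 11 neuronal markers (106 to 123 CPM and 352 to 372 CPM). Of 8 smooth muscle markers 5 were called lower (276 to 371 CPM and 146 to 204 CPM). Their part in the results of this type was not tested.

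Many, though not all, genes of the myelin and sterol synthesis lists were called lower in oligodendrocytes. Of the cholesterol synthesis list, 0 of 17 tested genes rose and 11 fell (median -0.60). Hmgcs1, an early enzyme of the pathway, was at 424, 366 and 322 CPM in the sham and 228, 179.7 and 163 CPM in the MCAO/R libraries (log2 fold change -0.98, SE 0.15, adjusted p = 0.00112). Idi1, the isomerase that follows mevalonate, was at 107, 114 and 79.4 CPM in the sham and 59.9, 50.6 and 36.6 CPM in the MCAO/R libraries (log2 fold change -1.09, SE 0.17, adjusted p = 0.00136). Each MCAO/R library was below the sham range for both.

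Of the myelin list, 1 of 16 tested genes rose and 9 fell (median -0.55). Ugt8a, which makes galactosylceramide, was at 1218, 1195 and 792 CPM in the sham and 655, 482 and 540.4 CPM in the MCAO/R libraries (log2 fold change -0.94, SE 0.16, adjusted p = 0.00235). Trf, transferrin, was the member that rose, from 3537, 3566 and 3347 CPM to 7871, 7068 and 3942 CPM (log2 fold change 0.85, SE 0.20, adjusted p = 0.0132). Trf did not pass without sham replicate 1 (log2 fold change 0.86, adjusted p = 0.05596). UMIs per oligodendrocyte were 8287 to 10240 in the sham and 5322 to 10100 in the MCAO/R libraries, lowest in MCAO/R replicates 2 and 5, and the part of this depth in the result was not tested.

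Of the oligodendrocyte stress list, 7 of 12 tested genes rose and 0 fell (median 1.83). Sgk1 and Cdkn1a, which rose, are also on the glucocorticoid-responsive list, so the counts of these lists share genes. Serpina3n, a secreted protease inhibitor of reactive glia, was at 3.43, 3.48 and 1.804 CPM in the sham and 356, 527 and 174 CPM in the MCAO/R libraries (log2 fold change 6.799, SE 0.59, adjusted p = 1.97e-05). C4b, a complement component, was at 23.7, 17.4 and 35.2 CPM in the sham and 250.3, 194 and 128 CPM in the MCAO/R libraries (log2 fold change 2.95, SE 0.32, adjusted p = 0.000109). Gli2, a transcription factor of hedgehog signaling, and Hif3a, a regulator of the hypoxia response, had log2 fold changes of 4.36 and 3.96. S100b and Jph4 fell (-1.69 and -2.05). Of the cytosolic ribosomal protein genes, 33 of 78 tested genes rose and 0 fell.

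Ciliated ependymal cells, which line the ventricles, had 170 DEGs with higher and 142 with lower expression of 13591 (1.25% and 1.04%). Of the reactive astrocyte list, 10 of 18 tested genes rose and 0 fell (median 2.54 against 0.0277). Gfap, the intermediate filament of reactive astroglia, was at 42.8, 51.3 and 38.2 CPM in the sham and 775, 911 and 378 CPM in the MCAO/R libraries (log2 fold change 3.97, SE 0.33, adjusted p = 0.000155). Serpina3n was at 1.13, 0 and 1.09 CPM in the sham and 360.4, 494 and 185 CPM in the MCAO/R libraries (log2 fold change 8.61, SE 0.61, adjusted p = 5.34e-05). Tgm1, a transglutaminase, had 0 UMIs in the sham libraries and 14.4, 117 and 41.1 CPM after MCAO/R, at least 46.2-fold higher against a floor of 3 counts over the sham group.

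Of the annexin, S100 and cytoskeleton list, 11 of 17 tested genes rose and 0 fell in ciliated ependymal cells. S100a4 was at 22.5, 29.1 and 38.2 CPM in the sham and 447, 1076 and 622 CPM in the MCAO/R libraries (log2 fold change 4.58, SE 0.43, adjusted p = 0.000557), and Cd44, the hyaluronan receptor, at 38.3, 29.1 and 21.8 CPM in the sham and 64.9, 291 and 216 CPM in the MCAO/R libraries (log2 fold change 2.71, SE 0.46, adjusted p = 0.0163). Calb1, the calcium buffer calbindin, fell from 143, 198 and 93.9 CPM to 26.4, 27.4 and 35.2 CPM (log2 fold change -2.25, SE 0.28, adjusted p = 0.00604). The groups did not overlap in these genes. Sox18, Tie1 and Erg, genes of endothelium, were also called lower, and summed endothelial markers in this type were 1806 to 4211 CPM in the sham and 629 to 1499 CPM in the MCAO/R group. Summed neutrophil markers there were 88.1 to 490.3 CPM and 193 to 3005 CPM, with 0 of 7 tested called, and neuronal markers 339.7 to 537 CPM and 718 to 1319 CPM, with 1 of 5 tested called higher. Their part in the results of this type was not tested. The 312 DEGs were 636 without MCAO/R replicate 1, 122 and 143 without MCAO/R replicates 2 and 5, and 49 and 89 without sham replicates 1 and 2. Cd44 did not pass without sham replicate 1 or 2 (log2 fold change 2.96 and 2.697, adjusted p = 0.0577 and 0.0602).

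Astrocytes had 18 and 7 DEGs of 11718 (0.154% and 0.0597%). Gfap was at 13.3, 14.5 and 8.396 CPM in the sham and 627, 704 and 190.1 CPM in the MCAO/R libraries (log2 fold change 5.401, SE 0.75, adjusted p = 0.0261). Serpina3n was at 0, 2.07 and 0 CPM in the sham and 66.7, 211 and 138 CPM in the MCAO/R libraries (log2 fold change 7.76, SE 1.35, adjusted p = 0.0445), and Nupr1, a stress-induced nuclear protein, at 13.3, 12.4 and 16.8 CPM in the sham and 135, 96.4 and 49.3 CPM in the MCAO/R libraries (log2 fold change 2.699, SE 0.42, adjusted p = 0.0261). Each MCAO/R library was above the sham range. Pltp, Itm2a and P2ry12, genes of endothelium and microglia, were among the 7 that fell. Gfap did not pass without sham replicate 1 or 2 or MCAO/R replicate 1 or 2 (log2 fold change 5.104 to 5.55, adjusted p = 0.0566 to 0.09304). Nupr1 did not pass without sham replicate 1 or 2 or MCAO/R replicate 1 or 2 (log2 fold change 2.38 to 2.69, adjusted p = 0.0615 to 0.108). Serpina3n did not pass without any 1 of the 6 libraries (log2 fold change 7.19 to 11.52, adjusted p = 0.0505 to 0.168). The count was 0 with edgeR without sham replicate 2, where 1678 genes had an unadjusted p below 0.05, and 353 with DESeq2 in all libraries. It was 3 and 4 without MCAO/R replicates 1 and 2, 15 without sham replicate 1 and 267 without sham replicate 5, and no call was shared by all 6 of these fits.

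**Figure D3:**
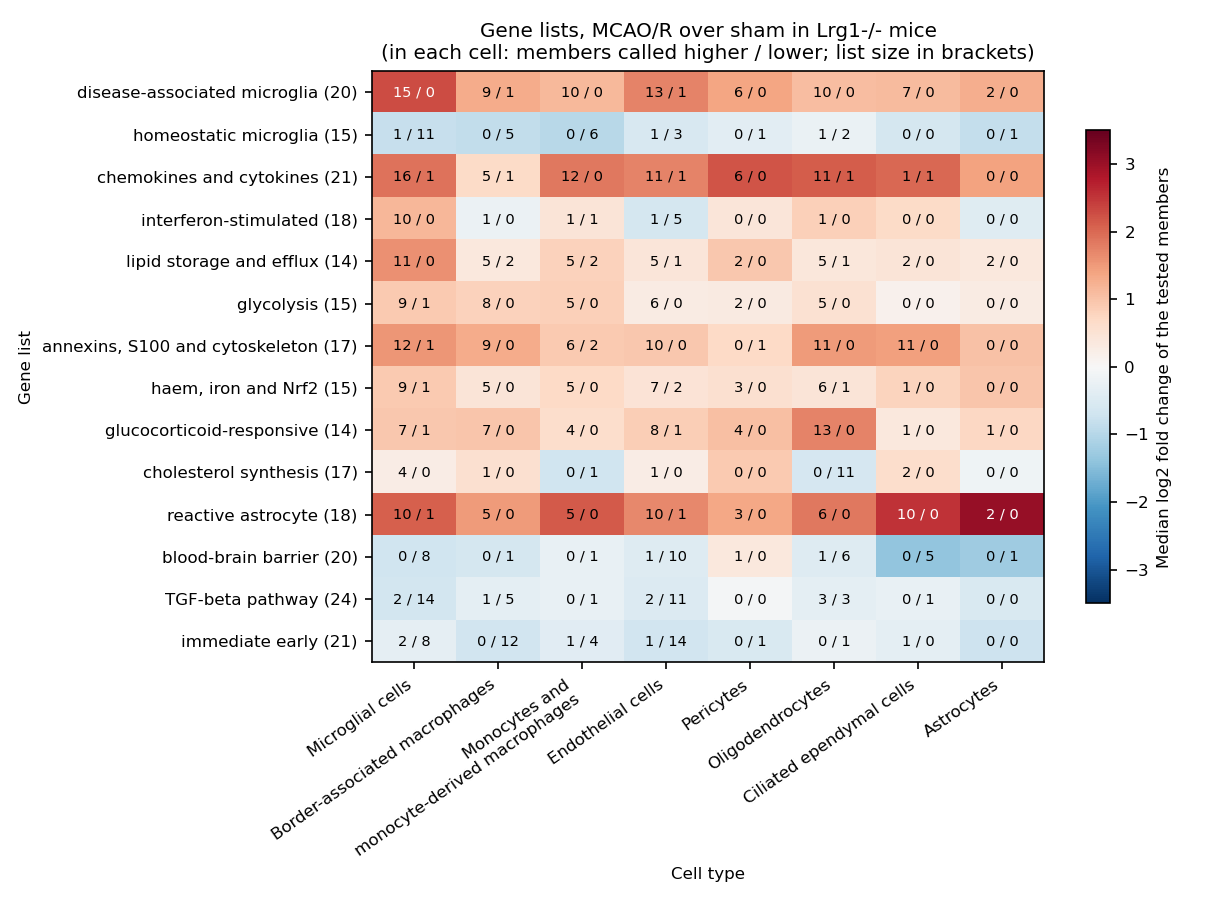
Median log2 fold change of 14 gene lists (rows) in 8 cell types (columns), MCAO/R over sham in Lrg1-/- mice, with the number of members called higher and lower written in each cell. The glucocorticoid-responsive list is highest in oligodendrocytes with a median of 1.74, where the cholesterol synthesis list has a median of -0.60 with 11 members called lower.

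Mural cells of the vessels had few DEGs. Pericytes had 131 and 122 of 12119 (1.08% and 1.01%), and vascular smooth muscle cells 74 and 82 of 13330 (0.555% and 0.615%). Haemoglobin transcripts in pericytes took 221300 CPM in sham replicate 5, which held 33 cells, against 18430 to 45940 CPM in the other Lrg1-/- libraries. In pericytes, Angptl4, an inhibitor of lipoprotein lipase that hypoxia induces, was at 0, 6.86 and 0 CPM in the sham and 20.9, 65.5 and 129 CPM in the MCAO/R libraries (log2 fold change 4.67, SE 0.89, adjusted p = 0.0134). In smooth muscle cells it was at 0.579, 2.53 and 3.79 CPM in the sham and 21.9, 33.6 and 42.5 CPM in the MCAO/R libraries (log2 fold change 3.86, SE 0.46, adjusted p = 0.0102). Stc1, a secreted glycoprotein, stood in pericytes at 0, 0 and 5.34 CPM in the sham and 75.6, 92.7 and 39.4 CPM in the MCAO/R libraries (log2 fold change 5.604, SE 1.14, adjusted p = 0.0174). Rdh10, an enzyme of retinoic acid synthesis, had a log2 fold change of 4.34, and Fkbp5 one of 4.33 in pericytes and 2.94 in smooth muscle cells. In pericytes Angptl4 did not pass without sham replicate 1, 2 or 5 (log2 fold change 4.09 to 9.68, adjusted p = 0.0528 to 0.0907), Stc1 did not pass without sham replicate 1, 2 or 5 or MCAO/R replicate 2 (log2 fold change 4.91 to 9.65, adjusted p = 0.0573 to 0.141), Rdh10 did not pass without sham replicate 1, 2 or 5 or MCAO/R replicate 2 (log2 fold change 3.86 to 4.59, adjusted p = 0.0505 to 0.105), and Fkbp5 did not pass without sham replicate 1 or 2 (log2 fold change 4.71 and 3.61, adjusted p = 0.0731 and 0.109). In smooth muscle cells Angptl4 did not pass without sham replicate 2 (log2 fold change 3.93, adjusted p = 0.0963), and Fkbp5 did not pass without sham replicate 1 or 2 (log2 fold change 2.85 and 2.93, adjusted p = 0.05003 and 0.0963).

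Among the genes that fell were Ptgfr, the receptor for prostaglandin F2 alpha, and Nnmt in pericytes (-3.44 and -2.58) and Ramp1, a subunit of the receptor for CGRP, in smooth muscle cells (152, 149.6 and 129 CPM in the sham and 42.4, 37.1 and 35.8 CPM in the MCAO/R libraries, log2 fold change -1.899, SE 0.18, adjusted p = 0.002904). The 156 DEGs of smooth muscle cells were 0 in an edgeR fit of the 6 Lrg1-/- libraries alone, where 1104 genes had an unadjusted p below 0.05, and 459 with DESeq2 in all libraries. Choroid plexus transcripts in smooth muscle cells took 46120 CPM in MCAO/R replicate 1, against 5841 and 5788 CPM in MCAO/R replicates 2 and 5 and 21990 to 37580 CPM in the sham group. The DEGs were 1744 without MCAO/R replicate 1, 10 and 35 without MCAO/R replicates 2 and 5, and 4, 2 and 260 without sham replicates 1, 2 and 5. The 253 of pericytes were 71, 36 and 172 without sham replicates 1, 2 and 5. Ptgfr did not pass without sham replicate 1, 2 or 5 or MCAO/R replicate 2 (log2 fold change -3.66 to -3.01, adjusted p = 0.0735 to 0.127).

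Choroid plexus epithelial cells had 137 and 58 DEGs of 13186 (1.04% and 0.44%). Gpx3, a secreted glutathione peroxidase, was at 3.12, 6.07 and 2.41 CPM in the sham and 29.9, 39.1 and 29.6 CPM in the MCAO/R libraries (log2 fold change 3.07, SE 0.37, adjusted p = 0.00235). Defb11, a defensin, was at 98.8, 138 and 167 CPM in the sham and 38.01, 49.5 and 36.6 CPM in the MCAO/R libraries (log2 fold change -1.697, SE 0.23, adjusted p = 0.00295), and Ap1s2, a subunit of a vesicle adaptor, at 248, 186 and 157 CPM in the sham and 84.7, 73.5 and 75.95 CPM in the MCAO/R libraries (log2 fold change -1.34, SE 0.23, adjusted p = 0.01104). The groups did not overlap in the 3 genes. Most other leading genes, such as Spp1, Lpl and Ccl12, are genes of macrophages. The count was 43 without sham replicate 1, 43 without sham replicate 2 and 347 without sham replicate 5. Ap1s2 did not pass without sham replicate 1 (log2 fold change -1.14, adjusted p = 0.0612).

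T cells had 47 and 78 DEGs of 10003 (0.47% and 0.78%), neurons and neuroblasts 54 and 12 of 12874 (0.419% and 0.0932%) and red blood cell barcodes 48 and 50 of 3322 (1.44% and 1.51%). In T cells the leading genes belonged to other types: Pltp, Itm2a and Cav1, genes of endothelium, fell and Spp1 and Lpl rose. In neurons and neuroblasts, Ccl3, Ccl4 and C5ar1, genes of microglia and macrophages, were among those that rose. The part of free RNA or attached cells in these genes was not tested, and no gene of the 3 types is described further. The 125 DEGs of T cells were 205, 29 and 47 without MCAO/R replicates 1, 2 and 5 and 329, 17 and 39 without sham replicates 1, 2 and 5. Neurons and neuroblasts had 2 sham libraries with enough cells (128 and 24 cells, and 9 in sham replicate 5, which was left out). Their 66 DEGs were 3 and 1 without sham replicates 1 and 2, each with 1 sham library in the fit. The 98 DEGs of red blood cell barcodes were 155 and 158 without MCAO/R replicates 1 and 2 and 0 with edgeR when any 1 sham library was left out, where 601 to 658 genes had an unadjusted p below 0.05 (155 with DESeq2 in all libraries).

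A few genes moved the same way in nearly all types. Among genes with groups that did not overlap and a level of at least 10% of that in any other type, Ctsb, the lysosomal protease cathepsin B, was called higher in 12 of 13 types, Spp1 and Plin2 in 11, and Lpl, Fkbp5 and AI506816 in 10. AY036118 and Cmss1 were called lower in 12 types, Cdk8 in 11 and Lars2 in 10. The types included the red blood cell barcodes for all of these genes except Fkbp5 and AI506816. The part of transcripts from other cells in these counts of types was not tested. AY036118 is an RNA that overlaps the ribosomal RNA repeats. Over all cells it was at 797, 886 and 356 CPM in the sham and 278, 139 and 127 CPM in the MCAO/R libraries, and Cmss1 was at 1029, 1247 and 553 CPM and 509.9, 212 and 219 CPM. Among the 6 Lrg1-/- libraries, the 3 sham libraries were highest and MCAO/R replicate 1 came next, which are the 4 libraries with round barcode numbers. The WT libraries held 152 to 284 CPM of AY036118, a range that includes MCAO/R replicate 1.

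**Figure D4:**
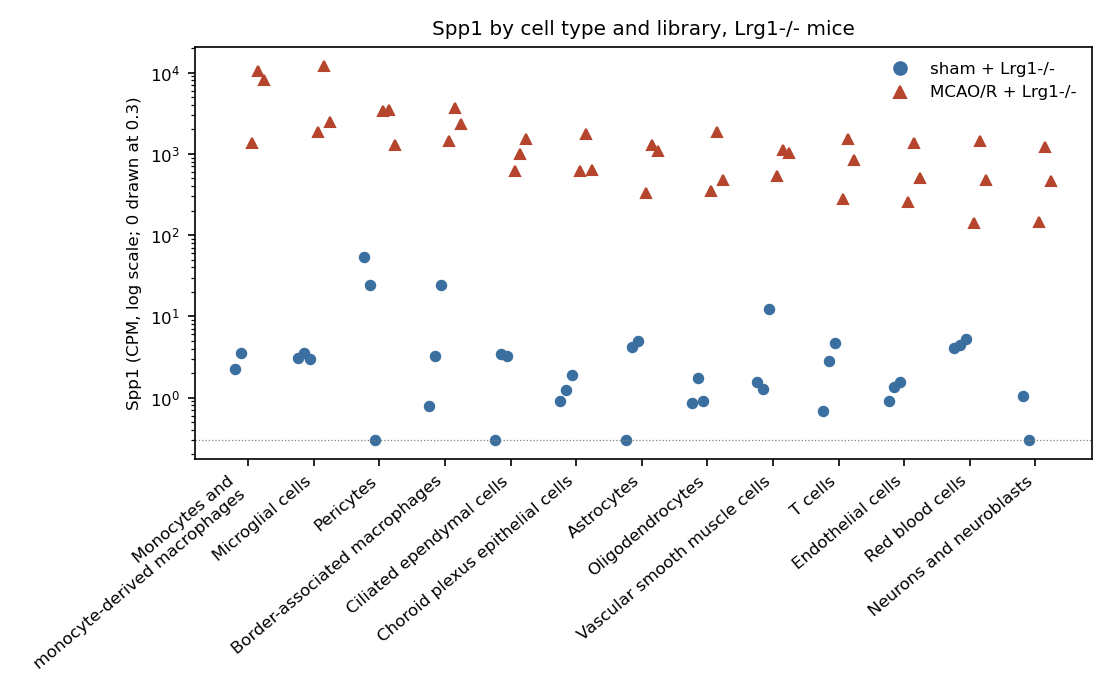
Level of Spp1 in 13 cell types of the 6 Lrg1-/- libraries (vertical axis, CPM on a log scale; circles sham, triangles MCAO/R, each point 1 library; libraries with 0 UMIs are drawn at 0.3 CPM). Red blood cell barcodes reach 141 to 1452 CPM after MCAO/R, against 4.03 to 5.23 CPM in the sham libraries. CPM are scaled within each cell type, so levels of different types are not directly comparable.

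The response of Lrg1-/- mice was then compared with that of WT mice by the interaction of genotype and surgery in the same fits. Of the 6504 microglial DEGs, 5402 (83.1%) had the same sign in WT mice, as had 2652 of 2980 (89.0%) in endothelial cells, 1903 of 2091 (91.0%) in oligodendrocytes and 886 of 1039 (85.3%) in border-associated macrophages. Of these DEGs, 2294 in microglial cells, 1289 in endothelial cells, 1224 in oligodendrocytes and 313 in border-associated macrophages were also called in WT mice. The background of WT calls among all genes was 4112 of 18350 in microglial cells and 2651 of 16686 in endothelial cells. It was 3770 of 16174 in oligodendrocytes and 1024 of 11183 in border-associated macrophages. Over all genes tested, the fold changes of the 2 genotypes had Pearson correlations of 0.509, 0.597, 0.509 and 0.490 in these types. The share of all tested genes with the same sign was not computed. The difference of the responses passed the test for 1045 of 18350 genes in microglial cells (5.69%), 444 of 16174 in oligodendrocytes (2.75%), 201 of 16686 in endothelial cells (1.2%), 28 of 11183 in border-associated macrophages (0.25%) and 3 of 12874 in neurons and neuroblasts (0.0233%). It passed for 0 genes (0.0%) in astrocytes, choroid plexus epithelial cells, ciliated ependymal cells, monocytes and monocyte-derived macrophages, pericytes, T cells and vascular smooth muscle cells with edgeR, where 520 to 1146 genes had an unadjusted p below 0.05 and DESeq2 called 3 to 69. The 28 genes of border-associated macrophages were 16, 6 and 41 without MCAO/R replicates 1, 2 and 5 and 0, 2 and 7 without sham replicates 1, 2 and 5 (1315 genes with an unadjusted p below 0.05 without sham replicate 1, and 155 called by DESeq2 in all libraries). The 3 genes of neurons and neuroblasts were 6, 9 and 13 without MCAO/R replicates 1, 2 and 5 and 0 with edgeR without sham replicate 1 or 2 (1568 and 1025 genes with an unadjusted p below 0.05, and 38 called by DESeq2 in all libraries). In the types with 0 genes, leaving out 1 library gave 0 to 6. For monocytes and for T cells 1 MCAO/R + WT library, with 25 and 22 cells, was left in the fit, which is assumed to vary like the other groups. No WT library was left out, so that the weight of either MCAO/R + WT library in these differences was not tested. Genotype and library set cannot be told apart here, since haemoglobin and choroid plexus RNA, barcode calling and sham levels all differed between the Lrg1-/- and the WT libraries. Sex enters the difference as well, since MCAO/R + Lrg1-/- replicates 1 and 2 were female and all WT and sham libraries male by their genes. The methods also name different suppliers and list different ages for the mice of the 2 genotypes.

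In microglial cells, the opposite sign in the 2 genotypes was the most frequent form, with 630 of the 1045 genes, against 189 with the same sign and the larger change in Lrg1-/- mice and 226 with the larger change in WT mice. These are fitted fold changes, which need not have passed the test in either genotype. The count was 381 without sham replicate 1 and 294 without sham replicate 2. Interferon-stimulated genes were examples. Ifit1 fell in WT mice, at 141, 151 and 123 CPM in the sham + WT and 54.6 and 34.9 CPM in the MCAO/R + WT libraries, and rose in Lrg1-/- mice (difference of the responses on the log2 scale 3.93, SE 0.72, adjusted p = 0.0113). Cxcl10, a chemokine induced by interferon, was at 1309, 1527 and 1107 CPM in the sham + WT and 1015 and 956 CPM in the MCAO/R + WT libraries and at 53.2, 68.5 and 58.9 CPM in the sham and 619.5, 502 and 290.4 CPM in the MCAO/R libraries of Lrg1-/- mice (difference of the responses on the log2 scale 3.38, SE 0.35, adjusted p = 0.000607). In both genes the sham + WT libraries were the higher sham group, and the MCAO/R levels of Cxcl10 were lower in Lrg1-/- mice.

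Part of the resting-state genes had responses that differed between the genotypes in microglial cells. The homeostatic list had a median of -1.49 in WT against -0.80 in Lrg1-/- mice, and the difference passed the test for 8 of 15 genes, each with the more negative response in WT mice. Olfml3 was at 780.4, 664 and 718 CPM in the sham + WT and 107 and 66.6 CPM in the MCAO/R + WT libraries (difference of the responses on the log2 scale 3.05, SE 0.25, adjusted p = 0.000311). Gpr34, a receptor for lysophosphatidylserine, was at 964, 901 and 916 CPM in the sham + WT and 123 and 119 CPM in the MCAO/R + WT libraries and at 501, 545 and 628 CPM in the sham and 376, 282 and 238 CPM in the MCAO/R libraries of Lrg1-/- mice (difference of the responses on the log2 scale 2.03, SE 0.23, adjusted p = 0.001498). Fcrls was at 1353, 1196 and 1172 CPM in the sham + WT and 612 and 276 CPM in the MCAO/R + WT libraries (difference of the responses on the log2 scale 2.33, SE 0.40, adjusted p = 0.008305). The 3 genes were lower in the sham + Lrg1-/- than in the sham + WT libraries.

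Of the cell cycle list, the difference in microglial cells passed for 5 of 21 genes, each with the larger rise in Lrg1-/- mice. Mcm6 was at 5.16, 5.06 and 5.34 CPM in the sham + WT and 11.1 and 8.72 CPM in the MCAO/R + WT libraries (difference of the responses on the log2 scale 2.81, SE 0.50, adjusted p = 0.00979). Igf1 was at 2.42, 2.06 and 1.92 CPM in the sham + WT and 11.5 and 3.78 CPM in the MCAO/R + WT libraries (difference of the responses on the log2 scale 3.46, SE 0.82, adjusted p = 0.0299), and the difference for Igf1 did not pass without sham replicate 1, 2 or 5 (adjusted p up to 0.0945 over the fits that left out 1 library). Spp1 was at 7.82, 8.86 and 5.48 CPM in the sham + WT and 1153 and 49.6 CPM in the MCAO/R + WT libraries, and its difference did not pass the test (difference of the responses on the log2 scale 4.39, SE 1.497, adjusted p = 0.0962). The mitochondrially encoded genes had a median of 0.32 in WT mice, and the difference passed for 9 of 13.

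Most glucocorticoid-responsive genes rose less in oligodendrocytes of Lrg1-/- mice. In oligodendrocytes the median of the list was 3.98 in WT against 1.74 in Lrg1-/- mice, and the difference passed the test for 11 of 14 genes, each with the larger rise in WT mice. Fkbp5 was at 8.51, 8.51 and 6.195 CPM in the sham + WT and 362 and 502 CPM in the MCAO/R + WT libraries (difference of the responses on the log2 scale -1.71, SE 0.36, adjusted p = 0.0244). Sgk1 was at 96.2, 71.98 and 54.4 CPM in the sham + WT and 1916 and 2133 CPM in the MCAO/R + WT libraries (difference of the responses on the log2 scale -1.91, SE 0.30, adjusted p = 0.00531), and Cdkn1a at 23.1, 15.4 and 16.5 CPM in the sham + WT and 1083 and 1038 CPM in the MCAO/R + WT libraries (difference of the responses on the log2 scale -3.25, SE 0.50, adjusted p = 0.00493). In these 3 genes both MCAO/R + WT libraries were above the 3 MCAO/R + Lrg1-/- libraries, and the sham levels of Fkbp5 lay close together. In this type the difference for Fkbp5 did not pass without sham replicate 1, 2 or 5 (adjusted p up to 0.107 over the fits that left out 1 library).

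The response of Fkbp5 also differed in 3 other types. Fkbp5 in microglial cells was at 35.9, 32.7 and 42.5 CPM in the sham and 132, 129 and 144 CPM in the MCAO/R libraries of Lrg1-/- mice (log2 fold change 1.88, SE 0.15, adjusted p = 1.14e-05) and at 35.5, 29.6 and 36.2 CPM in the sham + WT and 439.8 and 582 CPM in the MCAO/R + WT libraries (difference of the responses on the log2 scale -2.04, SE 0.21, adjusted p = 0.000588). In endothelial cells it was at 7.47, 6.097 and 4.1 CPM in the sham and 46.7, 80.3 and 88.8 CPM in the MCAO/R libraries of Lrg1-/- mice (log2 fold change 3.58, SE 0.26, adjusted p = 2.76e-05), and the difference was -2.27 (SE 0.36, adjusted p = 0.0123). In border-associated macrophages it was at 19.7, 22.9 and 16.2 CPM in the sham and 132, 139 and 151 CPM in the MCAO/R libraries of Lrg1-/- mice (log2 fold change 2.79, SE 0.29, adjusted p = 0.000139), and the difference was -2.51 (SE 0.41, adjusted p = 0.0343). In endothelial cells the difference for Fkbp5 did not pass without sham replicate 1 or 2 (adjusted p up to 0.0563 over the fits that left out 1 library), and in border-associated macrophages the difference for Fkbp5 did not pass without sham replicate 1, 2 or 5 or MCAO/R replicate 2 (adjusted p up to 0.117 over the fits that left out 1 library). Zbtb16, a transcription factor induced by glucocorticoids, was at 3.39, 3.42 and 3.97 CPM in the sham + WT and 147 and 388 CPM in the MCAO/R + WT libraries and at 7.77, 5.897 and 3.62 CPM in the sham and 11.6, 16.3 and 25.5 CPM in the MCAO/R libraries of Lrg1-/- mice in microglial cells (difference of the responses on the log2 scale -4.63, SE 0.55, adjusted p = 0.00155).

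**Figure D5:**
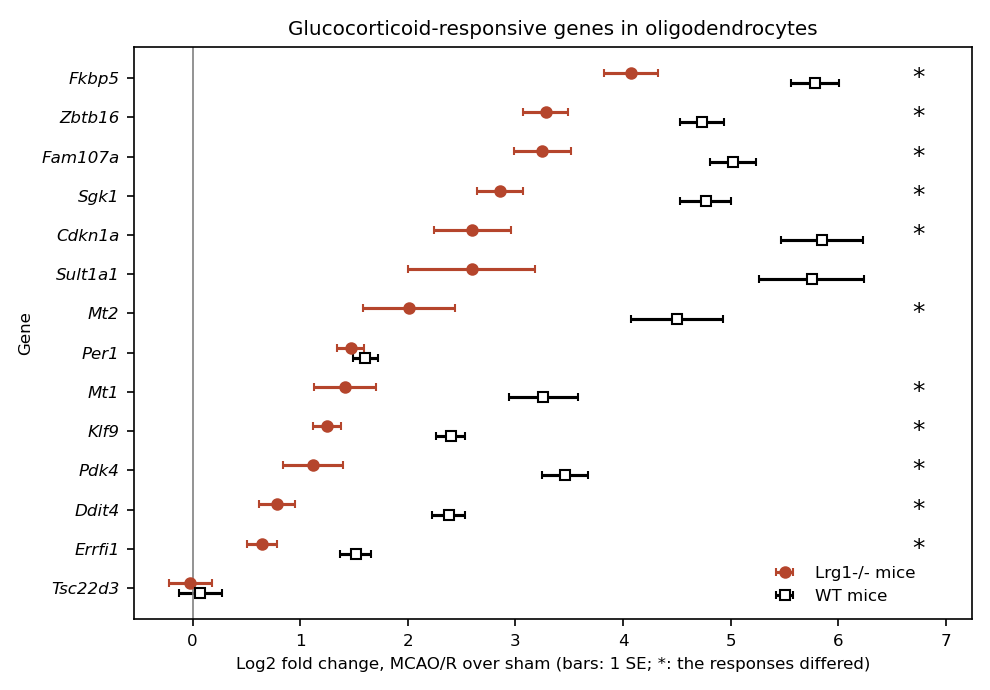
Log2 fold change (MCAO/R over sham) of the 14 glucocorticoid-responsive genes in oligodendrocytes of Lrg1-/- mice (filled circles) and WT mice (open squares), with bars for 1 standard error; stars mark the 11 genes whose difference passed the test. Fkbp5 lies at 4.07 in Lrg1-/- mice, and Cdkn1a at 2.60.

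Sterol synthesis genes of oligodendrocytes had a negative median in both genotypes. The cholesterol synthesis list had a median of -1.15 in WT mice, and the difference passed the test for 5 of 17 genes. Hmgcs1 was at 610, 587 and 583 CPM in the sham + WT and 127 and 171 CPM in the MCAO/R + WT libraries (difference of the responses on the log2 scale 1.01, SE 0.22, adjusted p = 0.0273), and the difference for Hmgcs1 did not pass without sham replicate 2 or 5 (adjusted p up to 0.0742 over the fits that left out 1 library). Trf was at 4147, 4219 and 4346 CPM in the sham + WT and 2537 and 2080 CPM in the MCAO/R + WT libraries (difference of the responses on the log2 scale 1.73, SE 0.30, adjusted p = 0.00997). Of the 444 genes, 237 had fitted fold changes of the same sign that were larger in WT mice, 15 of the same sign that were larger in Lrg1-/- mice and 192 of opposite signs. The count was 190 without sham replicate 1, 211 without sham replicate 2 and 726 without MCAO/R replicate 5.

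In endothelial cells, 12 of the 201 genes had fitted fold changes of the same sign that were larger in Lrg1-/- mice, 87 of the same sign that were larger in WT mice and 102 of opposite signs. Unc13c, a gene of vesicle priming, was at 37.5, 30.3 and 30.4 CPM in the sham and 5.87, 2.03 and 2.405 CPM in the MCAO/R libraries of Lrg1-/- mice and at 78.5, 86.6 and 121 CPM in the sham + WT and 1.33 and 1.35 CPM in the MCAO/R + WT libraries (difference of the responses on the log2 scale 2.73, SE 0.48, adjusted p = 0.0195). Ccnd1, cyclin D1, was at 32, 42.8 and 41 CPM in the sham and 145, 157 and 91.8 CPM in the MCAO/R libraries of Lrg1-/- mice and at 51.4, 53.5 and 63.5 CPM in the sham + WT and 62.5 and 36.1 CPM in the MCAO/R + WT libraries (difference of the responses on the log2 scale 1.96, SE 0.34, adjusted p = 0.0193). Id1 was at 1068, 1198 and 1341 CPM in the sham + WT and 1354 and 1424 CPM in the MCAO/R + WT libraries (difference of the responses on the log2 scale -1.28, SE 0.27, adjusted p = 0.0429). Here the difference for Unc13c did not pass without sham replicate 2 (adjusted p up to 0.0563 over the fits that left out 1 library), and the difference for Id1 did not pass without sham replicate 1, 2 or 5 (adjusted p up to 0.119 over the fits that left out 1 library). The count was 96 without sham replicate 1, 56 without sham replicate 2 and 365 without MCAO/R replicate 5.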

How the data were processed

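The authors deposited unnormalised UMI counts per gene and called cell barcode for each of 11 mice, made with Cell Ranger and STAR on mm10 per the submitters' processing notes. Here, cells with more than 500 genes, more than 1000 UMIs and under 25% mitochondrial UMIs were kept (3249 to 34181 per Lrg1-/- library). Doublets were scored against simulated pairs and removed, by the score's own threshold in MCAO/R replicate 2 and as scores above the quantile that marks the top 6% (180 to 1966 cells, fewer than 6% because of tied scores) in the other 5 Lrg1-/- libraries, where that threshold marked under 0.5%. Cells were clustered on 2000 variable genes without mitochondrial and haemoglobin genes, 15 principal components, neighbours drawn from every library and the Leiden algorithm (resolution 1, then 0.5 within clusters) with scanpy 1.11.5, and named from listed markers.

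Counts were summed per library and type and fitted with edgeR 4.0.16 (R 4.3.3, TMM, filterByExpr), all 4 groups together, for libraries with at least 20 cells of a type. Libraries under this number were left out of a type's fit. Shares were compared by exact two-sided permutation. The code was tested on simulated data. Alternatives included DESeq2 1.42.0, another normalisation, filter, resolution and mitochondrial limit, thinned cells, and each Lrg1-/- library left out in turn, but none of the WT libraries. Intervals and floors cover counting error only.

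Genes were named by rule: up to 4 members of each of 33 lists with the largest fold change among called genes whose groups did not overlap, the 10 largest called changes per type and direction at 20 CPM or more and at least 10% of the level in any other type, the 10 genes called in most types, and the 5 largest called differences between genotypes per type. The lists, markers and comparison were chosen with earlier results of these data known. Neutrophils and other types with too few cells were not tested for genes.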

Additional observations from a re-analysis of the deposited data

Results flagged for a closer look

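For 31 named genes and cell types the response to MCAO/R differed between Lrg1-/- and WT mice by the test of the interaction in edgeR. Values are the Lrg1-/- minus the WT response on the log2 scale, with the adjusted p over all genes of the type. Those described in the report are repeated here only as values. Genotype and library set cannot be told apart in any of them, and sex enters each through the female MCAO/R + Lrg1-/- replicates 1 and 2.

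In microglial cells, the interferon-stimulated genes Ifit1, Isg15 and Cxcl10 had differences of 3.93 (adjusted p = 0.0113), 2.56 (adjusted p = 0.0116) and 3.38 (adjusted p = 0.000607). Genes of the resting state had 3.05 (adjusted p = 0.000311) for Olfml3, 2.33 (adjusted p = 0.008305) for Fcrls, 2.03 (adjusted p = 0.001498) for Gpr34 and 1.95 (adjusted p = 0.00562) for Slc2a5. Replication genes had 3.39 (adjusted p = 0.0107) for Uhrf1, 2.81 (adjusted p = 0.00979) for Mcm6, 2.59 (adjusted p = 0.00892) for Mcm5 and 2.37 (adjusted p = 0.0189) for Mcm2. The difference was 3.46 (adjusted p = 0.0299) for Igf1, 1.34 (adjusted p = 0.04803) for Upk1b and 1.25 (adjusted p = 0.0187) for Gapdh. It was negative for Zbtb16, -4.63 (adjusted p = 0.00155), Fkbp5, -2.04 (adjusted p = 0.000588), C4b, -1.89 (adjusted p = 0.0388), and Klf4, -1.31 (adjusted p = 0.0393).

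In oligodendrocytes, the glucocorticoid-responsive genes Cdkn1a, Sgk1 and Fkbp5 had differences of -3.25 (adjusted p = 0.00493), -1.91 (adjusted p = 0.00531) and -1.71 (adjusted p = 0.0244). Trf had 1.73 (adjusted p = 0.00997), Jph4, a protein that joins membranes, 1.25 (adjusted p = 0.00531), Ugt8a 1.12 (adjusted p = 0.0264) and Hmgcs1 1.01 (adjusted p = 0.0273). In endothelial cells the values were 2.73 (adjusted p = 0.0195) for Unc13c, 1.96 (adjusted p = 0.0193) for Ccnd1, -2.27 (adjusted p = 0.0123) for Fkbp5 and -1.28 (adjusted p = 0.0429) for Id1. In border-associated macrophages they were 2.70 (adjusted p = 0.0343) for Fabp5 and -2.51 (adjusted p = 0.0343) for Fkbp5.

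Of the 31, 18 passed in each of the 6 fits that left out 1 Lrg1-/- library, and 13 did not. Without sham replicate 1 or 2 the call was lost for Gapdh and Mcm2 in microglial cells (adjusted p up to 0.0613 and 0.0668) and for Fkbp5 in endothelial cells (0.0563). Unc13c lost it without sham replicate 2 (0.0563), and Hmgcs1 without sham replicate 2 or 5 (0.0742). Igf1 in microglial cells, Fkbp5 in oligodendrocytes and Id1 in endothelial cells lost it without any 1 of the sham replicates (0.0945, 0.107 and 0.119). C4b and Klf4 in microglial cells and Fabp5 and Fkbp5 in border-associated macrophages lost it without any 1 of the sham replicates or without MCAO/R replicate 2 (0.135, 0.0842, 0.104 and 0.117). Upk1b lost it without sham replicate 1 or 2 or MCAO/R replicate 1 or 2 (0.113).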

How the results depend on the processing

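The microglial count of DEGs was the largest of all types in every fit run, and none of the 9 shares given here changed its sign. The shared replicate numbers were checked for pairing. In no type was the correlation of deviations above 0.1 for every pair of same-numbered libraries, and the main fits took the libraries as unpaired. For replicates 1, 2 and 5 it was 0.114, 0.076 and 0.186 in astrocytes and -0.591, 0.255 and -0.395 in smooth muscle cells. Deviations from a mean of so few libraries cannot exclude a pairing. With the replicate number as a block in the 6 Lrg1-/- libraries alone the count of DEGs was 220 in astrocytes, 359 in border-associated macrophages, 14 in choroid plexus epithelial cells, 1260 in endothelial cells, 43 in neurons, 1095 in oligodendrocytes, 95 in pericytes and 0 in smooth muscle cells. In smooth muscle cells 604 genes had an unadjusted p below 0.05 with edgeR under the block.

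Other settings moved the counts of DEGs as follows. With DESeq2 the count was 353 in astrocytes, 300 in choroid plexus epithelial cells, 684 in ciliated ependymal cells, 212 in neurons, 521 in pericytes, 155 in red blood cell barcodes and 459 in smooth muscle cells. At Leiden resolution 0.3 the count was 97 in astrocytes, 41 in neurons, 164 in red blood cell barcodes, 82 in T cells and 1413 in smooth muscle cells. With MCAO/R replicate 5 as the only library of its group, chosen after seeing the data, the count was 4 in astrocytes, 155 in border-associated macrophages, 1488 in endothelial cells, 4136 in microglial cells, 115 in neurons, 400 in red blood cell barcodes, 57 in T cells and 363 in smooth muscle cells. With cells thinned to 1000 UMIs the count was 11 in astrocytes, 176 in border-associated macrophages, 16 in ciliated ependymal cells, 1284 in endothelial cells, 2947 in microglial cells, 222 in monocytes, 26 in neurons, 530 in oligodendrocytes, 27 in pericytes, 18 in red blood cell barcodes, 38 in T cells and 86 in smooth muscle cells. With doublets kept the count was 149 in astrocytes, 513 in choroid plexus epithelial cells, 856 in pericytes and 342 in smooth muscle cells. With at least 50 cells per library the count was 13 in T cells. Without a filter on low counts the count was 848 in astrocytes, 787 in choroid plexus epithelial cells, 1121 in ciliated ependymal cells, 486 in neurons, 663 in pericytes, 353 in red blood cell barcodes, 612 in T cells and 347 in smooth muscle cells. In a fit of the 6 Lrg1-/- libraries alone the count was 47 in astrocytes, 669 in border-associated macrophages, 79 in choroid plexus epithelial cells, 61 in ciliated ependymal cells, 1879 in endothelial cells, 1260 in oligodendrocytes, 131 in pericytes, 55 in T cells and 0 in smooth muscle cells. Under 10% mitochondrial UMIs the count was 16 in astrocytes. Leaving out 1 Lrg1-/- library gave 0 to 267 in astrocytes, 364 to 1021 in border-associated macrophages, 43 to 347 in choroid plexus epithelial cells, 49 to 636 in ciliated ependymal cells, 1705 to 3623 in endothelial cells, 4900 to 6613 in microglial cells, 240 to 1338 in monocytes, 1 to 94 in neurons, 1083 to 2604 in oligodendrocytes, 36 to 306 in pericytes, 0 to 158 in red blood cell barcodes, 17 to 329 in T cells and 2 to 1744 in smooth muscle cells.

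Counts for the difference between the Lrg1-/- and the WT response moved too. With DESeq2 it was 17 in astrocytes, 155 in border-associated macrophages, 15 in choroid plexus epithelial cells, 3 in ciliated ependymal cells, 633 in endothelial cells, 1975 in microglial cells, 10 in monocytes, 38 in neurons, 946 in oligodendrocytes, 69 in pericytes, 26 in T cells and 27 in smooth muscle cells. At Leiden resolution 0.3 it was 2 in border-associated macrophages, 438 in endothelial cells, 1 in neurons and 30 in pericytes. With MCAO/R replicate 5 as the only library of its group, chosen after seeing the data, it was 15 in border-associated macrophages, 85 in endothelial cells, 649 in microglial cells, 4 in monocytes, 27 in neurons, 88 in pericytes and 1 in T cells. With cells thinned to 1000 UMIs it was 1 in astrocytes, 79 in endothelial cells, 391 in microglial cells, 0 in neurons, 84 in oligodendrocytes and 2 in pericytes. With doublets kept it was 662 in endothelial cells, 1781 in microglial cells, 1 in monocytes, 1 in neurons, 25 in pericytes and 2 in T cells. With at least 50 cells per library it was 7 in border-associated macrophages and 8 in pericytes. Without a filter on low counts it was 207 in astrocytes, 295 in border-associated macrophages, 124 in choroid plexus epithelial cells, 58 in ciliated ependymal cells, 547 in endothelial cells, 43 in monocytes, 212 in neurons, 1302 in oligodendrocytes, 191 in pericytes, 224 in T cells and 3 in smooth muscle cells. In neurons it was 0 with RLE size factors, with haemoglobin genes left out and under 10% mitochondrial UMIs, against 3 with edgeR as reported (910, 917 and 919 genes with an unadjusted p below 0.05, and 342 with cells thinned). Leaving out 1 library gave 0 to 4 in astrocytes, 0 to 41 in border-associated macrophages, 0 to 5 in choroid plexus epithelial cells, 0 to 3 in ciliated ependymal cells, 56 to 365 in endothelial cells, 294 to 1386 in microglial cells, 0 to 3 in monocytes, 0 to 13 in neurons, 190 to 726 in oligodendrocytes, 0 to 5 in pericytes, 0 to 6 in T cells and 0 to 4 in smooth muscle cells.

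For shares of cells, leaving out 1 library gave differences in percentage points of -1.12 to -0.617 in border-associated macrophages, -10.3 to -1.27 in endothelial cells, -10.3 to -3.5 in microglial cells, 0.948 to 2.89 in monocytes, 0.784 to 2.75 in neutrophils, 1.18 to 4.07 in oligodendrocytes, 1.4 to 5.8 in red blood cell barcodes, -7.45 to -4.75 in smooth muscle cells and 7.54 to 26.9 in unnamed cells. At Leiden resolution 0.3 the difference was -1.07 in smooth muscle cells and -0.422 in border-associated macrophages, and with doublets kept it was -0.494 in microglial cells, -2.54 in endothelial cells and 5.98 in unnamed cells. With named cells other than red blood cells as the denominator it was 6.99 in oligodendrocytes, 3.29 in monocytes and 3.56 in neutrophils (exact permutation p = 0.1 each). Under 10% mitochondrial UMIs it was 1.17 in oligodendrocytes.

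Of 136 named genes and types, Mki67 and Olfml3 in microglial cells, with a log2 fold change near 0 that did not pass the test, changed sign. Others kept their sign and lost their call. These were 17 of 131 with thinned cells, 12 of 131 under the replicate block and 7 of 131 in the 6 Lrg1-/- libraries alone. Some also lost it with MCAO/R replicate 5, a male library, as the only one of its group. Mki67 had negative values of -0.0267 (Leiden resolution 0.3), -0.93 (replicate 5 only), -0.61 (cells thinned to 1000 UMIs), -0.91 (without MCAO/R replicate 1) and -0.30 (without sham replicate 5). Olfml3 had negative values of -0.0887 (DESeq2), -0.0115 (Leiden resolution 0.3), -0.13 (replicate 5 only), -0.0887 (RLE size factors), -0.14 (cells thinned to 1000 UMIs), -0.0387 (haemoglobin genes left out), -0.10 (replicate block, Lrg1-/- alone), -0.0919 (Lrg1-/- alone), -0.11 (without MCAO/R replicate 1), -0.055 (without sham replicate 1) and -0.0348 (without sham replicate 2). Over the fits that left out 1 library, Mki67 ranged from -0.91 to 0.82 and Olfml3 ranged from -0.11 to 0.0681. The cause of the changes was not tested. The median depth was 3190 to 7911 UMIs per cell, and the part of depth and of the number of cells in the counts of DEGs was not tested beyond the thinned cells. No fit at 50 cells per library was run for monocytes and neurons, and none at resolution 0.3 for monocytes.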

Other observations

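Further gene lists were examined in microglial cells of Lrg1-/- mice, where 20.4% of all genes were called higher and 15.1% lower. Of the complement list, 7 of 16 tested genes rose and 1 fell, and the largest called changes were in C4b (2.01 on the log2 scale), C5ar1, the receptor for the anaphylatoxin C5a, and C3ar1, the receptor for C3a. C5ar1 was at 199.5, 139 and 161 CPM in the sham and 472, 727 and 498 CPM in the MCAO/R libraries (log2 fold change 1.76, SE 0.18, adjusted p = 4.85e-05), and C3ar1 at 177, 138 and 157 CPM in the sham and 324, 488 and 364 CPM in the MCAO/R libraries (log2 fold change 1.32, SE 0.15, adjusted p = 9.19e-05). Every MCAO/R library was above the sham range for both receptors. Of the heat shock list, 5 of 13 tested genes rose and 0 fell, led by the mitochondrial chaperone Hspd1 at 76.5, 73.5 and 53.99 CPM in the sham and 218, 228 and 165 CPM in the MCAO/R libraries (log2 fold change 1.57, SE 0.24, adjusted p = 0.0004201) and by Hspa5, the chaperone of the endoplasmic reticulum, at 1430, 1415 and 1024 CPM in the sham and 2775, 4142 and 2025 CPM in the MCAO/R libraries (log2 fold change 1.21, SE 0.23, adjusted p = 0.00144). Of the p53 target list, 5 of 13 tested genes rose and 1 fell. Bax, which permeabilises mitochondria in apoptosis, was at 52.6, 56.4 and 50.4 CPM in the sham and 109, 215 and 159.6 CPM in the MCAO/R libraries (log2 fold change 1.61, SE 0.25, adjusted p = 0.0004197), whereas Bbc3, another pro-apoptotic gene, fell from 70.2, 72.7 and 57.9 CPM to 30.5, 33.3 and 38.6 CPM.

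In endothelial cells, of the heat shock list 1 of 13 tested genes rose and 4 fell, where 9.36% of all genes were called higher and 8.5% lower. Dnajb1, a co-chaperone of Hsp70, was at 357, 363 and 347 CPM in the sham and 163, 187 and 185 CPM in the MCAO/R libraries (log2 fold change -0.996, SE 0.14, adjusted p = 0.000901), and Hspb1, a small heat shock protein, at 1327, 1426 and 1345 CPM in the sham and 679, 816 and 639 CPM in the MCAO/R libraries (log2 fold change -0.94, SE 0.15, adjusted p = 0.00183). The MCAO/R libraries were below the sham libraries in both. Of the annexin, S100 and cytoskeleton list, 10 of 17 tested genes rose and 0 fell. Anxa2, a calcium-dependent membrane-binding protein, was at 138, 146 and 181 CPM in the sham and 394, 526 and 373 CPM in the MCAO/R libraries (log2 fold change 1.48, SE 0.21, adjusted p = 0.000743) and Emp1, a membrane protein, at 35.7, 51.95 and 58.7 CPM in the sham and 102, 212 and 153 CPM in the MCAO/R libraries (log2 fold change 1.69, SE 0.30, adjusted p = 0.00293), without overlap. Of the glycolysis list, 6 of 15 tested genes rose and 0 fell, with Gapdh at 349, 391 and 616 CPM in the sham and 1247, 1193 and 822 CPM in the MCAO/R libraries (log2 fold change 1.27, SE 0.24, adjusted p = 0.00384).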
